A study of Homo sapiens with 18 samples.

Results

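The genes described here were 9 heat shock and ubiquitin genes whose products work in the cytosol: HSPA1A, HSPA1B, HSPA8, HSPH1, HSP90AA1, DNAJB1, HSPB1, BAG3 and UBB. They were taken by symbol from the deposited gene table, which held 56269 genes, and all 9 symbols were found there. RNA-seq had been performed on IMR90 cells, a line of human lung fibroblasts, to compare hyaluronan (HA) preparations of different length before and after oxidative stress. A pre-incubation of 6 h was given with PBS, cNSF-HA or fNSF-HA (HA at 20 µg/ml). Cells were then either collected (PBS, cNSF and fNSF groups) or, once the medium had been removed, exposed for 1 h to 200 µM tert-butyl hydroperoxide (tBHP), an organic peroxide, and collected 6 h after that exposure began (PBS + tBHP, cNSF + tBHP and fNSF + tBHP groups). No group without tBHP was collected at that later time. The differences called responses to tBHP below thus cannot be told apart from those of medium removal and extra time in culture. HA of both kinds came from naked mole-rat skin fibroblasts. For fNSF-HA the polymer was partially fragmented with hyaluronidase, and for cNSF-HA it was mixed with enzyme that had been inactivated by heat. Each of the 6 groups had 3 libraries, which the study's methods call biological replicates, and the labels do not say whether they were separate cultures. P-values measure the spread between these samples.

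Heat shock proteins are chaperones that bind unfolded proteins and help them refold or be degraded. In unstressed cells the transcription factor HSF1 is held inactive. When damaged proteins accumulate, HSF1 forms trimers and binds heat shock elements, which are inverted repeats of the letters GAA, in the promoters of HSP70, HSP90, HSP40 and small heat shock protein genes. Ubiquitin, which marks damaged proteins for the proteasome, is encoded in part by UBB, whose product is a chain of ubiquitin units.

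The 18 libraries held between 20261103 and 26287660 reads assigned to genes, and the normalised read counts were whole reads divided by a size factor of each library. Of the 9 members, 7 reached the minimum mean normalised read count of 10 and were tested with limma among 13686 genes. HSPA1A had a mean of 7.82 and was not tested in that fit, and HSPA1B was listed at 0 in every library. The 8 fibroblast markers examined, such as COL1A1 and VIM, had mean normalised read counts of at least 3982. Of the markers of other cell types, 2 of 4 epithelial and 1 of 3 endothelial genes were at 0 in every library, and the highest mean among these 10 epithelial, endothelial and leukocyte genes was 12.98. The summed endothelial markers ran from 13.1 to 25.1 after tBHP and from 3.73 to 14.8 before it, and the summed leukocyte markers from 2.19 to 11.3 after and from 1.97 to 5.87 before it, both with overlap. The leukocyte sums did not overlap within cNSF-HA (3.10 to 5.87 before, 6.32 to 10.2 after) or within fNSF-HA (1.97 to 3.73 before, 6.14 to 9.57 after). The endothelial sums did not overlap within PBS (5.19 to 9.66 before, 13.06 to 24.97 after). Within cNSF-HA they did not overlap either (6.84 to 11.37 before, 14.2 to 17.28 after). VWF, the only endothelial marker tested, was higher with tBHP in PBS cells (log2 difference 1.32, limma adjusted p = 0.00982). It was also higher in fNSF-HA cells (1.18, adjusted p = 0.0225) but was not called in cNSF-HA cells (0.72, adjusted p = 0.139). The part of these markers in the results was not tested. Fewer cells and less RNA per cell cannot be told apart in these bulk samples.

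In GRCh38 coordinates of GENCODE 29, HSPA1A lies at chr6:31815464-31817946, HSPA1B at chr6:31827735-31830255, HSPA8 at chr11:123057489-123063230, HSPH1 at chr13:31134974-31162388 and HSP90AA1 at chr14:102080738-102139699. DNAJB1 lies at chr19:14514770-14529770, HSPB1 at chr7:76302544-76304295, BAG3 at chr10:119651370-119677819 and UBB at chr17:16380798-16382745. All are protein-coding, and HSPA1A and HSPA1B are genes of a single exon. The members differed in level. Per kb of exon, and averaged over all libraries, normalised read counts were 21030.3 for HSPA8, 13772 for HSP90AA1, 10559 for HSPB1 and 10119 for UBB. DNAJB1, BAG3 and HSPH1 followed at 1505, 1430 and 1146. The HSPA1A row stood at 3.15, and 69.9% of its 100-nt windows also occur in HSPA1B. The part of these shared windows in that low value was not tested. In PBS cells without tBHP, HSPB1 at 7545 ± 330 and UBB at 7548 ± 250 (mean per kb ± SD, n = 3) did not differ beyond their spread, and neither did BAG3 at 1028 ± 24.8 and HSPH1 at 1025 ± 4.17. The abundant members were the constitutive HSP70 chaperone HSPA8, the HSP90 chaperone HSP90AA1, the small heat shock protein HSPB1 and the ubiquitin gene.

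After tBHP, 6 of the 7 tested members rose and 1 fell in PBS cells (limma, adjusted p under 0.05), against 51.1% of all genes called in either direction, 24.2% higher and 26.9% lower. The same counts held in cNSF-HA cells, where 50.8% of all genes were called, 24% higher and 26.8% lower. In fNSF-HA cells 5 rose, 1 fell and HSPB1 was not called, against 41.9% of all genes, 19.2% higher and 22.7% lower. The median log2 difference over the 7 members was 0.35, 0.41 and 0.44 with PBS, cNSF-HA and fNSF-HA, where that over all tested genes was 0.0043, -0.00053 and -0.034. The libraries with and without tBHP did not overlap for any of the 7 tested members, except HSPB1 with fNSF-HA, which can be set beside 63.8%, 63.7% and 48.7% of all tested genes with PBS, cNSF-HA and fNSF-HA. The members' counts are thus to be read against a response that covered a large share of all tested genes, and the members differed among themselves in size and direction, from a fall of HSPA8 to rises of HSPB1, BAG3 and UBB.

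**Figure D1:**
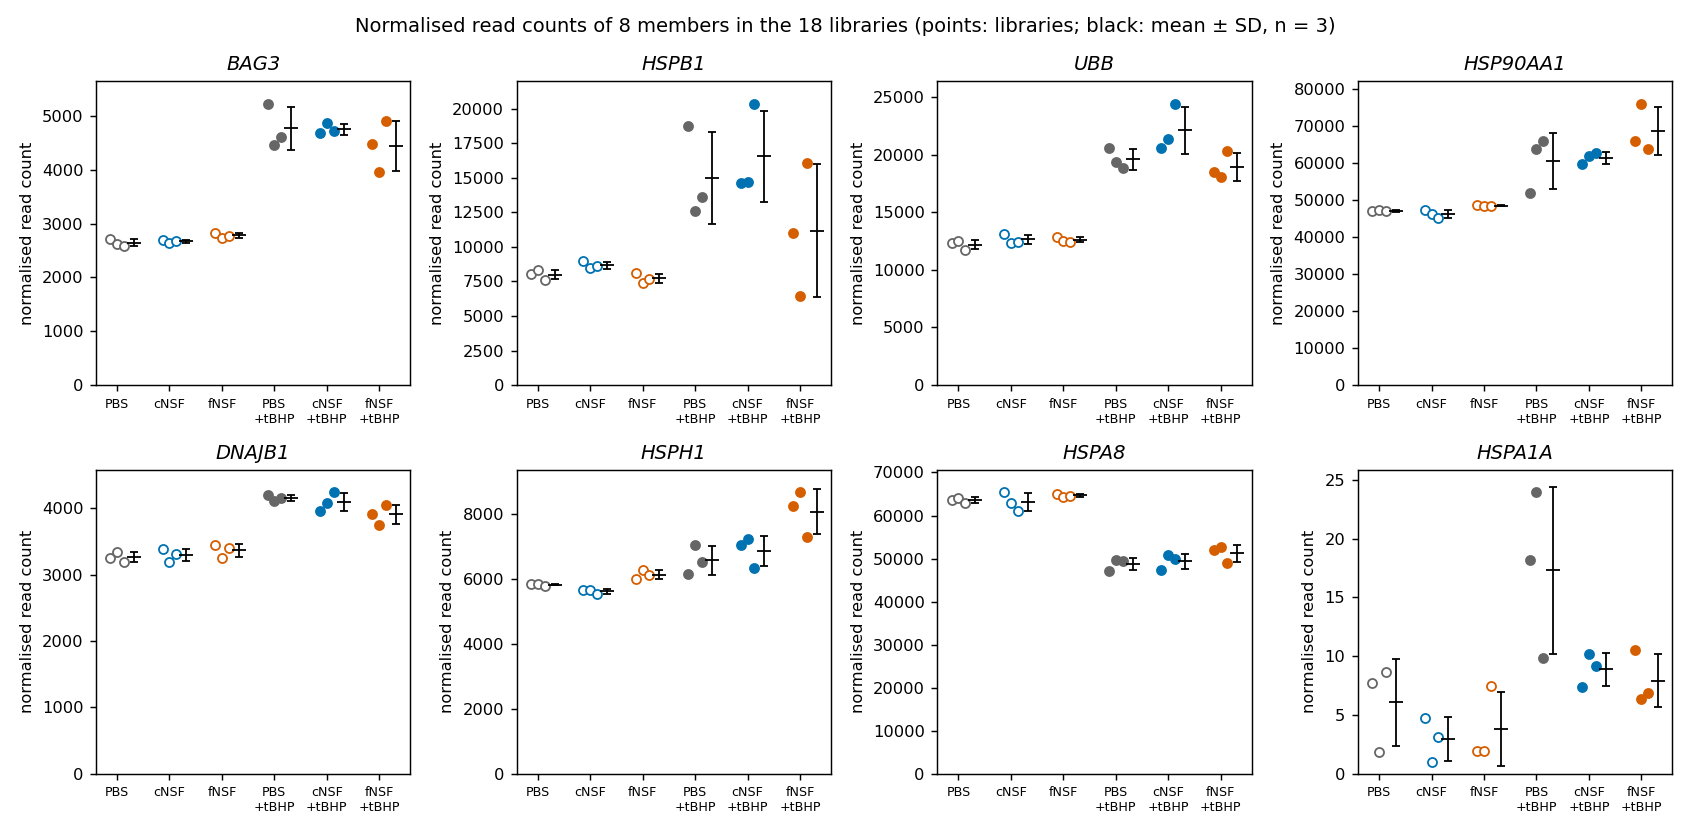
Normalised read counts (vertical axes, from 0) of 8 members in the 18 libraries, in groups of 3 along the horizontal axes; open points are libraries without tBHP, filled points libraries with tBHP, and black bars the mean ± SD. BAG3, UBB and HSPA8 separate completely by tBHP, while HSPB1 spreads from 6472 to 16083 in fNSF + tBHP.

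BAG3 is a co-chaperone that links HSP70 to small heat shock proteins and to selective autophagy. Its normalised read counts without tBHP were 2714, 2621 and 2592 with PBS, 2702, 2638 and 2669 with cNSF-HA, and 2832, 2738 and 2771 with fNSF-HA. With tBHP they were 5233, 4471 and 4606 after PBS, 4679, 4868 and 4719 after cNSF-HA, and 4473, 3962 and 4900 after fNSF-HA. All 9 libraries with tBHP lay above all 9 without it. BAG3 rose 1.80-fold with PBS (log2 difference 0.85 ± 0.07 SE, adjusted p = 4.09e-08), 1.78-fold with cNSF-HA (adjusted p = 6.00e-08) and 1.59-fold with fNSF-HA (adjusted p = 9.11e-07). Fold changes here and below are on the log2(value + 1) scale of the limma fit.

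UBB, a polyubiquitin gene that encodes ubiquitin units joined head to tail, responded to a similar extent. Its counts without tBHP were 12378, 12493 and 11742 with PBS, 13123, 12384 and 12461 with cNSF-HA, and 12882, 12554 and 12426 with fNSF-HA. After tBHP they reached 20577, 19365 and 18861 with PBS, 20574, 21383 and 24459 with cNSF-HA, and 18529, 18036 and 20301 with fNSF-HA. The libraries with and without tBHP again did not overlap. UBB rose 1.61-fold with PBS (log2 difference 0.68 ± 0.07 SE, adjusted p = 2.22e-07), 1.75-fold with cNSF-HA (adjusted p = 3.34e-08) and 1.5-fold with fNSF-HA (adjusted p = 1.75e-06). Of the 100-nt windows of the UBB transcript, 27.0% also occurred in another annotated transcript, and 24.4% of all windows occurred in the antisense gene AC093484.3, which covers 461 nt of its exons on the opposite strand. The library kit kept no strand, so reads from such stretches cannot be assigned to either gene with certainty.

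HSPB1 encodes a small heat shock protein that holds unfolded proteins and protects actin filaments. Without tBHP its counts were 8061, 8311 and 7620 with PBS, 8965, 8441 and 8609 with cNSF-HA, and 8096, 7396 and 7680.0 with fNSF-HA. With tBHP they were 18784, 12603 and 13594 with PBS, 14669, 14686 and 20388 with cNSF-HA, and 11006, 6472 and 16083 with fNSF-HA. The second fNSF + tBHP library lay below every library without tBHP, whereas the other two lay above all of them. HSPB1 rose 1.85-fold with PBS (log2 difference 0.89 ± 0.22 SE, adjusted p = 0.00263) and 1.89-fold with cNSF-HA (adjusted p = 0.00205). With fNSF-HA the log2 difference was 0.44 (95% confidence interval -0.02 to 0.90, adjusted p = 0.118), and it was 0.79 (adjusted p = 0.000272) without the second library, where 50.6% of all genes were called. Without the third library it was 0.13 (adjusted p = 0.597). With each library's trend with GC content and length removed, the log2 differences were 0.51, 0.45 and 0.37 with PBS, cNSF-HA and fNSF-HA.

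HSP90AA1 encodes the inducible cytosolic HSP90, a chaperone of kinases and steroid receptors, and DNAJB1 encodes the main inducible HSP40, which delivers clients to HSP70. HSP90AA1 ranged from 45176 to 48630 in the libraries without tBHP. It lay between 51869 and 66026 in PBS + tBHP, between 59747 and 62708 in cNSF + tBHP and between 63973 and 76175 in fNSF + tBHP, all above the untreated libraries. It rose 1.28-fold, 1.33-fold and 1.41-fold in the 3 pre-incubations in that order (limma, adjusted p = 0.00107, 0.000322 and 5.63e-05). DNAJB1 ranged from 3194 to 3445 without tBHP and from 3757 to 4245 with it, without overlap. It rose 1.27-fold, 1.24-fold and 1.16-fold (limma, adjusted p = 4.36e-05, 0.00014 and 0.00437). Its log2 differences of 0.35, 0.31 and 0.21 became 0.18, 0.11 and 0.093 with the same trend removed. For DNAJB1, 211 nt of exon are shared with TECR on the opposite strand.

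HSPH1, an HSP110 that exchanges the nucleotide of HSP70, had the smallest log2 difference among the members that rose in PBS cells, a place that DNAJB1 took once the trend with GC content and length was removed (0.53 for HSPH1, 0.18 for DNAJB1). Its counts were 5826, 5829 and 5787 without and 6130, 7041 and 6501 with tBHP there. With cNSF-HA they were 5645, 5637 and 5526 without and 7034, 7205 and 6324 with tBHP, and with fNSF-HA 5974, 6249 and 6125 without and 8239, 8654 and 7290.2 with tBHP. In each pre-incubation the libraries did not overlap, and the PBS + tBHP libraries came closest to their untreated ones. HSPH1 rose 1.13-fold with PBS (log2 difference 0.17 ± 0.07 SE, limma adjusted p = 0.0484), 1.22-fold with cNSF-HA (adjusted p = 0.00227) and 1.31-fold with fNSF-HA (adjusted p = 0.000186). The call in PBS cells was lost in 14 of the 18 fits that left out 1 library, those without a library of another group among them, with log2 differences from 0.12 (without the second PBS + tBHP library, adjusted p = 0.202) to 0.22.

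HSPA8, the constitutive HSC70 that folds new proteins and takes part in clathrin uncoating, was the member that fell. Its counts were 63605, 64164 and 62796 with PBS, 65402, 62936 and 61110.0 with cNSF-HA, and 65024, 64410.0 and 64598 with fNSF-HA before tBHP. After tBHP they were 47042, 49558 and 49431 with PBS, 47276, 50780 and 49916 with cNSF-HA, and 51929, 52699 and 49020.4 with fNSF-HA. Every library with tBHP was below every library without it. HSPA8 decreased by 23.4% with PBS (log2 difference -0.38 ± 0.05 SE, limma adjusted p = 8.80e-06), by 21.9% with cNSF-HA (adjusted p = 2.23e-05) and by 20.9% with fNSF-HA (adjusted p = 4.71e-05).

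**Figure D2:**
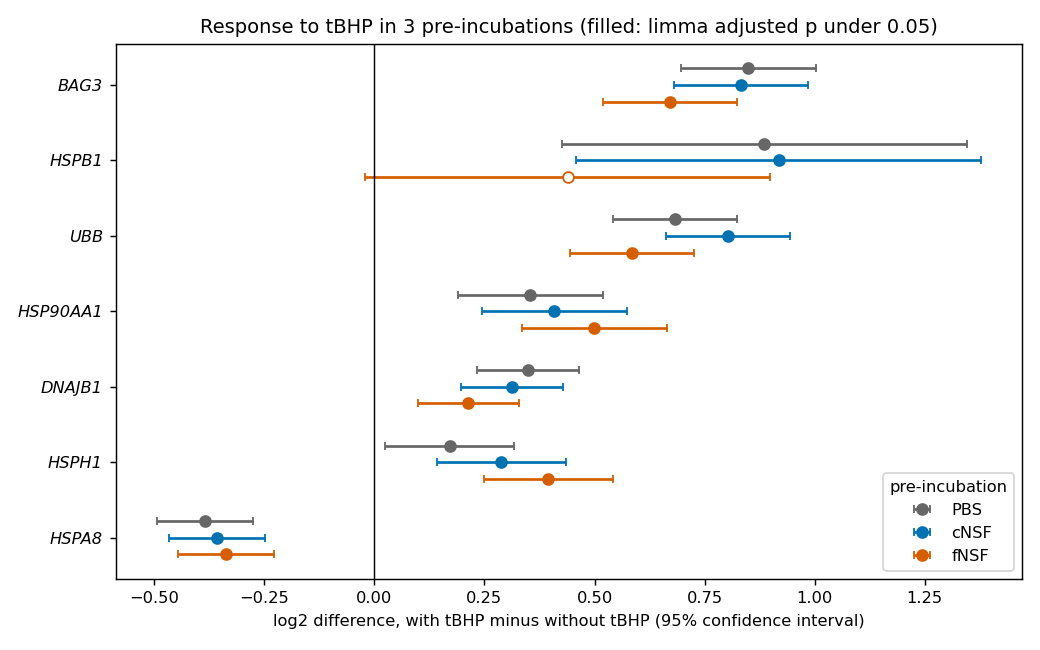
Log2 difference between libraries with and without tBHP (horizontal axis, points, with 95% confidence intervals as bars) for the 7 tested members after each pre-incubation; filled points passed the limma test at an adjusted p under 0.05. BAG3 and UBB lie between 0.59 and 0.85, HSPA8 between -0.38 and -0.34, and the open point is HSPB1 with fNSF-HA at 0.44.

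HSPA1A and HSPA1B encode the same stress-inducible HSP70 protein from neighbouring genes on chromosome 6. HSPA1A had 8, 2 and 10 reads in the PBS libraries, 5, 1 and 3 with cNSF-HA, and 2, 2 and 8 with fNSF-HA. After tBHP it had 16, 22 and 9 reads with PBS, 7, 10 and 9 with cNSF-HA, and 12, 6 and 6 with fNSF-HA. As reads the PBS libraries overlapped with their tBHP libraries. As normalised read counts they lay closely apart, at no more than 8.65 without and no less than 9.85 with tBHP. The cNSF-HA libraries did not overlap with theirs on either scale, and the fNSF-HA libraries did on both. Without the minimum mean, the limma log2 differences were 1.48, 1.45 and 1.05 (adjusted p = 0.0771, 0.0878 and 0.284). An edgeR test on the reads, added after the data were seen, gave 1.47, 1.55 and 1.04 (adjusted p = 0.0141, 0.0528 and 0.291), so PBS cells passed in that test only, which called 22.9% of all genes there. HSPA1B had no read in any library, which allows up to 3 reads in each.

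In the GENCODE 29 transcripts, 69.9% of the 100-nt windows of HSPA1A, the length of the reads, also occur in HSPA1B, and 718 of 2384 windows are found in no other gene. In HSPA1B, 661 of 2422 windows are its own, and 920 nt of its exons are covered by AL671762.1 on the same strand. The part of these shared windows in the low counts of the HSPA1A and HSPA1B rows was not tested. HSPA6, an HSP70 gene found in primates and silent in most unstressed cells, had 1644 of 2272 windows of its own, and shared the others with HSPA7. It rose from 0.933 to 11.2 normalised counts in the libraries without tBHP to 129 to 257 in those with it, without overlap. Its log2 differences were 4.87 ± 0.49 SE with PBS, 5.26 with cNSF-HA and 4.64 with fNSF-HA (limma, adjusted p = 3.16e-07, 1.47e-07 and 7.15e-07).

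The promoter windows of RefSeq (GRCh38.p14, 250 bases before to 50 after each gene's start) were searched on both strands for heat shock elements, since these are the sites through which stress is known to raise this gene family. The element of 3 units, GAANNTTCNNGAA, occurred in 0.487% of 27305 promoters. The elements of 2 units, which overlap with it, occurred in 6.87% (GAANNTTC) and 7.84% (TTCNNGAA). All 9 members matched a promoter by symbol, and HSPA8, the member that fell, was the only one with an element of 3 units, at 2 places. HSPA1A, HSPA1B and HSPB1 each held 1 element of 2 units. No such letters were found in the windows of HSPH1, HSP90AA1, DNAJB1, BAG3 and UBB, which says nothing of elements outside them. Each window covers 1 RefSeq start, and other starts of a gene were not searched. Coding transcripts of GENCODE 29 that began within 100 nt of that start were 2 of 4 for HSPH1 and 1 of 2 for HSP90AA1. They were 1 of 2 for DNAJB1, 1 of 1 for BAG3, 2 of 5 for UBB and 1 of 7 for HSPA8. Among the related genes described below, HSPA6 held 1 element of 3 units and another of 2 units. CHORDC1 held 3 elements of 3 units, and DNAJA1 and DNAJB6 held 1 each. Mean counts in PBS and PBS + tBHP were 1206 and 1242 for CHORDC1, 5857 and 7859 for DNAJA1, and 2139 and 2715 for DNAJB6. The sequences below show the elements of HSPA8, which fell, of HSPA6, which rose, and of HSPA1A and HSPB1, 5′ to 3′ on the gene's strand, with the element in capitals. They lie at chr1:161524290-161524539 (+) for HSPA6, chr11:123062346-123062374 and chr11:123062171-123062199 (-) for HSPA8, chr6:31815293-31815463 (+) for HSPA1A and chr7:76302423-76302543 (+) for HSPB1. The stretches of HSPA6, HSPA1A and HSPB1 are upstream of their exons, and those of HSPA8 are the element with 8 bases on either side, since other transcripts of HSPA8 cover this window. The RefSeq start of HSPB1 was 129 nt from the nearest start of a coding transcript in GENCODE 29.
HSPA6: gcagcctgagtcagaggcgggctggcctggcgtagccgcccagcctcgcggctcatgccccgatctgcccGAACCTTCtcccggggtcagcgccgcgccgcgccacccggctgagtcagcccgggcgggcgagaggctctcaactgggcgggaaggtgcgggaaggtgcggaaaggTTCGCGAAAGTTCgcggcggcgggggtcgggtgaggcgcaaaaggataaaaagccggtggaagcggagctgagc
HSPA8 first element: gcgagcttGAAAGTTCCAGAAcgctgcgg
HSPA8 second element: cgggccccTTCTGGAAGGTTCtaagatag
HSPA1A: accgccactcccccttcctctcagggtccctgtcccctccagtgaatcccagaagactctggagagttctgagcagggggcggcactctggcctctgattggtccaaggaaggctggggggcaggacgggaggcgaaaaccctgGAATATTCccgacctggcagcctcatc
HSPB1: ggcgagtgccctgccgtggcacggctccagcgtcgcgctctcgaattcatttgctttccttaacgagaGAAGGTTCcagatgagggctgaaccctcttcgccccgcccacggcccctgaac

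Among 59 other chaperone and ubiquitin genes in 9 lists, 56 were tested. With tBHP, 23 of them rose and 15 fell after PBS, 27 against 12 after cNSF-HA, and 24 against 10 after fNSF-HA. Of all genes, 24.2% rose and 26.9% fell after PBS, 24% and 26.8% after cNSF-HA, and 19.2% and 22.7% after fNSF-HA, and the counts of single lists can be read against these shares. The median log2 difference of the 56 genes in PBS cells was 0.093, against 0.0043 over all genes. The values of these lists are from the fit without a correction for GC content. In the PBS libraries the median log2 deviation of the genes richest in GC minus that of the poorest differed with tBHP. It was -0.26, -0.34 and -0.38 without tBHP and 0.89, 0.17 and 0.34 with it. The part of GC content in the calls of these lists was not tested. All 4 tested small heat shock proteins other than HSPB1 rose in every pre-incubation, led by HSPB8, the partner of BAG3, at 4.39-fold in PBS cells (limma, adjusted p = 9.23e-13) and CRYAB, the lens and muscle crystallin, at 2.48-fold (adjusted p = 1.72e-08). HSPB6 rose 1.85-fold and HSPB7 1.43-fold there. These rises set the list at a median of 1.10, above that of the members.

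Of 7 other genes of ubiquitin and its handling, 3 rose and 1 fell in PBS cells. SQSTM1, the autophagy receptor for ubiquitinated cargo, rose from between 4363 and 4690 counts to between 18560 and 22090 in PBS cells, a 4.45-fold change (limma, adjusted p = 2.57e-11). VCP, the segregase that extracts ubiquitinated proteins, rose 1.38-fold, and UBA6, a ubiquitin-activating enzyme, decreased by 46.3%. SQSTM1 lay further from 0 than any member in PBS cells, but the differences between genes were not tested.

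Among the partners of HSP90AA1, 5 of 11 rose and 2 fell in PBS cells. HSP90AB1, the constitutive HSP90, rose 1.43-fold, its activator AHSA1 1.64-fold and the immunophilin FKBP4 1.62-fold, whereas the co-chaperone PTGES3 decreased by 32.1% (limma, adjusted p at most 0.000166 for each). Among 8 J-domain genes other than DNAJB1, 4 rose and 1 fell, DNAJA4 by 2.99-fold, DNAJB2 by 1.78-fold and DNAJA1 by 1.34-fold upwards, while DNAJB4 decreased by 33.5%. Of 5 other BAG genes, BAG1 rose 1.62-fold and BAG6 1.31-fold, BAG5 decreased by 16.4%, and BAG4 had a log2 difference of -0.21 (adjusted p = 0.242).

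HSPA4, an HSP110 relative of HSPH1, decreased by 24.5% in PBS cells. HSPA2, the testis-enriched HSP70, decreased by 49.0%, while HSPA4L rose 2.12-fold. With HSPA6, 2 of the 5 tested HSP70 and HSP110 genes outside the members thus rose and 3 fell. HSF1 itself, at 64.7% GC, rose 1.33-fold (limma, adjusted p = 0.0366). With fNSF-HA its log2 difference was 0.11 (limma, adjusted p = 0.601), at 1799, 1231 and 2393 counts with tBHP, of which the second lay below every library without it. In PBS cells HSF2 decreased by 23.0%, HSBP1, which binds HSF1 trimers, decreased by 13.2%, and HSF4 had a log2 difference of 0.06 (adjusted p = 0.843). Of 8 subunits of the TRiC chaperonin, which folds actin and tubulin, 1 rose and 4 fell. CCT2 decreased by 23.1%, CCT6A decreased by 22.8%, CCT8 decreased by 21.2% and CCT5 decreased by 12.7%. Among 4 mitochondrial chaperones HSPA9 rose 1.45-fold, HSPE1 decreased by 36.8%, and HSPD1 and TRAP1 had log2 differences of 0.03 and -0.13 (adjusted p = 0.776 and 0.343).

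**Figure D3:**
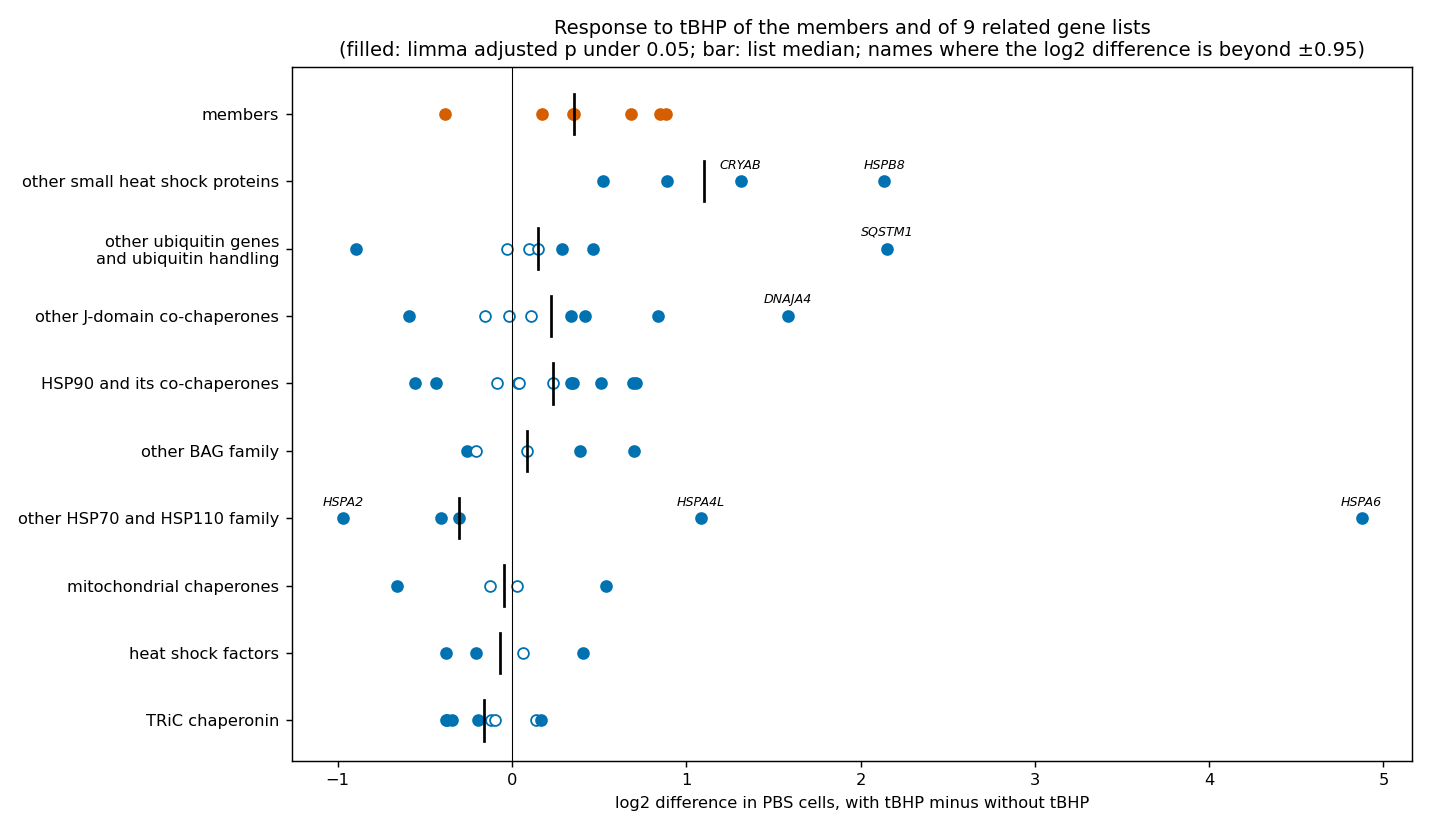
Log2 difference between PBS cells with and without tBHP (horizontal axis) for the tested genes of the members and of 9 related lists (rows); each point is a gene, filled where the limma adjusted p was under 0.05, and black bars are list medians. HSPA6 stands at 4.87, HSPB8 and SQSTM1 near 2.1, and the members between -0.38 and 0.89.

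Without tBHP the HA preparations were compared with PBS and with each other. None of the 7 tested members, and none of 13686 genes, passed the limma test in any of these 3 comparisons (0% called). Unadjusted p-values under 0.05 numbered 126, 109 and 206 over all genes for cNSF-HA against PBS, fNSF-HA against PBS and cNSF-HA against fNSF-HA, and 0 among the members in each. edgeR also called 0 genes in each, and DESeq2 called 0, 3 and 0. The members' log2 differences lay between -0.13 and 0.17 in these comparisons. HSPH1 was ordered without overlap, cNSF-HA below PBS below fNSF-HA, at means of 5603 ± 66.4, 5814 ± 23.7 and 6116 ± 138 (SD, n = 3). Libraries did not overlap for 2 of the 7 members for cNSF-HA against PBS (HSPH1 and HSPB1), for 4 for fNSF-HA against PBS (HSPH1, HSP90AA1, BAG3 and HSPA8) and for 4 for cNSF-HA against fNSF-HA (HSPH1, HSPB1, HSP90AA1 and BAG3). Over all genes this held for 15.2%, 14% and 25% in the 3 comparisons. For cNSF-HA against fNSF-HA the log2 difference of HSPH1 was -0.13 (95% confidence interval -0.27 to 0.02, adjusted p = 1.00) and that of HSPB1 was 0.17 (-0.29 to 0.63, adjusted p = 1.00). In a fit of those 6 libraries alone both passed (limma, adjusted p = 0.00438 for HSPH1 and 0.00108 for HSPB1), where the spread of the tBHP libraries no longer entered and 7.16% of all genes passed. These 6 libraries were also separated in base composition. The median log2 deviation of the genes richest in GC minus that of the poorest was -0.11, -0.22 and -0.23 with cNSF-HA and -0.37, -0.47 and -0.37 with fNSF-HA. With the trend of each of the 18 libraries with GC content and length removed, HSPH1 differed by -0.040 and HSPB1 by 0.061 (limma, adjusted p = 1.00 for both).

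After tBHP no tested member passed the test in any of the comparisons between pre-incubations. Over all genes 0% were called for cNSF-HA against PBS, 0.139% for fNSF-HA against PBS and 0% for cNSF-HA against fNSF-HA, and unadjusted p-values under 0.05 numbered 1183, 3102 and 4412. For fNSF-HA against PBS, HSPH1 was higher by 0.30 (log2, 95% confidence interval 0.15 to 0.44, limma adjusted p = 0.0687). Its libraries and those of DNAJB1, 2 of the 7 members, did not overlap, as for 12% of all genes. HSPB1 differed by -0.50 (-0.96 to -0.04, adjusted p = 0.197) and HSP90AA1 by 0.19 (0.02 to 0.35, adjusted p = 0.182), both with overlapping libraries. For cNSF-HA against fNSF-HA, HSPB1 differed by 0.65 (0.19 to 1.11), UBB by 0.22 (0.08 to 0.36) and HSPH1 by -0.23 (-0.38 to -0.09), each with an adjusted p of 0.0981. The libraries of UBB, HSPH1 and HSP90AA1, 3 of the 7 members, did not overlap in that comparison, as for 13.4% of all genes, and those of HSPB1 did. For cNSF-HA against PBS the log2 differences ran from -0.02 to 0.17, the latter that of UBB (0.03 to 0.31, adjusted p = 0.556).

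These differences rested in part on single libraries and on the fit. Without the third fNSF + tBHP library, HSPH1 (0.37, limma adjusted p = 0.00243), HSP90AA1 (0.24, adjusted p = 0.0416) and HSPB1 (-0.81, adjusted p = 0.00469) passed for fNSF-HA against PBS, as did 29.4% of all genes. Without it HSPB1 (0.96, adjusted p = 0.00138), HSPH1 (-0.30, adjusted p = 0.00323) and UBB (0.27, adjusted p = 0.00644) passed for cNSF-HA against fNSF-HA, as did 40.8% of all genes. HSPH1 also passed for fNSF-HA against PBS without the second PBS + tBHP library (0.35, adjusted p = 0.0408) and without the third cNSF + tBHP library (0.30, adjusted p = 0.0397), where 1.25% and 1.16% of all genes were called. With the replicate number as a block it passed in that comparison too (0.30, limma adjusted p = 0.0499), with 0.446% of all genes called. With the trend with GC content and length removed its difference was 0.12 (limma, adjusted p = 0.167). Without the second fNSF + tBHP library HSPB1 differed by -0.15 for fNSF-HA against PBS and by 0.30 for cNSF-HA against fNSF-HA. DESeq2 on the reads called HSPH1 in both comparisons (adjusted p = 0.00484 and 0.0386) and UBB for cNSF-HA against fNSF-HA (adjusted p = 0.0407), where it called 3.99% and 7.37% of the genes it adjusted.

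**Figure D4:**
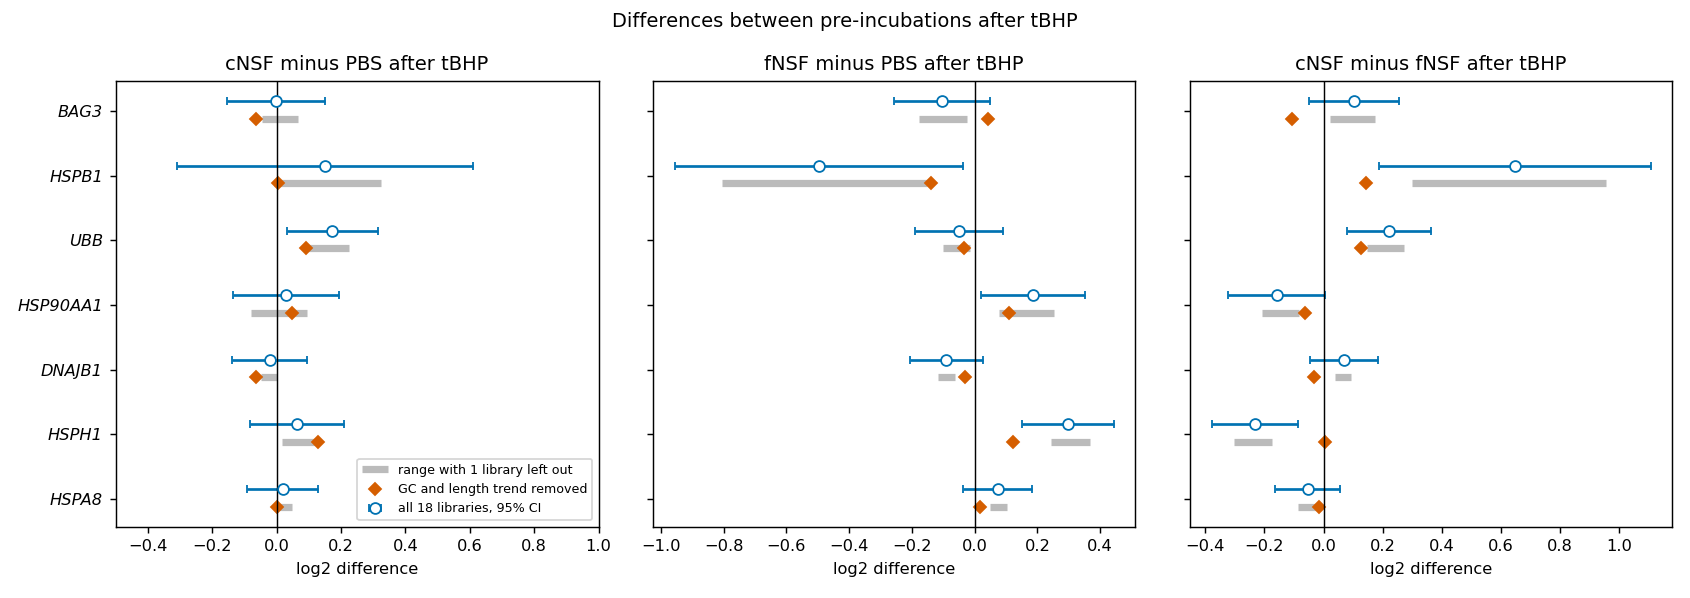
Log2 differences between pre-incubations among the tBHP libraries (horizontal axes) for the 7 tested members; open circles with bars are the limma values with 95% confidence intervals, grey bars the range of values with 1 library left out, and diamonds the value with the trend of each library with GC content and length removed. HSPH1 moves from -0.23 to 0.0046 and HSPB1 from 0.65 to 0.14 for cNSF minus fNSF once the trend is removed.

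The libraries with tBHP differed more in base composition, and HSPB1 and HSPH1 varied with it. In each library the median log2 deviation from the 18-library mean was taken over the 1254 genes of highest and the 1254 of lowest GC content, and the difference between them was used as its GC balance. The GC balance lay between -0.47 and -0.11 in the 9 libraries without tBHP. With tBHP it was 0.89, 0.17 and 0.34 in the PBS libraries, 0.50, 0.51 and 0.80 with cNSF-HA, and -0.03, -0.94 and 0.55 with fNSF-HA. HSPB1, at 64.3% GC the richest of the tested members, deviated from its own mean by 0.84, 0.26 and 0.37, by 0.48, 0.48 and 0.96, and by 0.07, -0.70 and 0.61 in the same 9 libraries. HSPH1, at 40.0% the poorest, had its highest count in the library with a GC balance of -0.94. For cNSF-HA against fNSF-HA after tBHP the median log2 difference over all genes rose from -0.30 in the bin of lowest GC content to 0.44 in the highest, with HSPH1 in the second and HSPB1 in the last of 10 bins.

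With the trend of each library with GC content and length removed, HSPH1, HSPB1 and UBB differed by 0.0046, 0.14 and 0.13 for cNSF-HA against fNSF-HA after tBHP (limma, adjusted p = 0.97, 0.201 and 0.131). For fNSF-HA against PBS after tBHP, HSPB1 moved from -0.50 to -0.14 and HSP90AA1 from 0.19 to 0.11 (limma, adjusted p = 0.258 and 0.321). The responses to tBHP kept their direction in that fit, and all 7 tested members passed in each pre-incubation, HSPB1 with fNSF-HA included (0.37, adjusted p = 1.12e-05), where 57.8%, 56.6% and 56.1% of all genes did with PBS, cNSF-HA and fNSF-HA. HSPH1 became larger, at 0.53, 0.66 and 0.61 in the 3 pre-incubations, while HSPB1 with PBS and cNSF-HA and DNAJB1 throughout became smaller. HSPA8 moved from -0.38, -0.36 and -0.34 to -0.39 in each. Removing such a trend also removes any response that itself follows GC content, and which of the fits is closer to the cells was not tested.

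**Figure D5:**
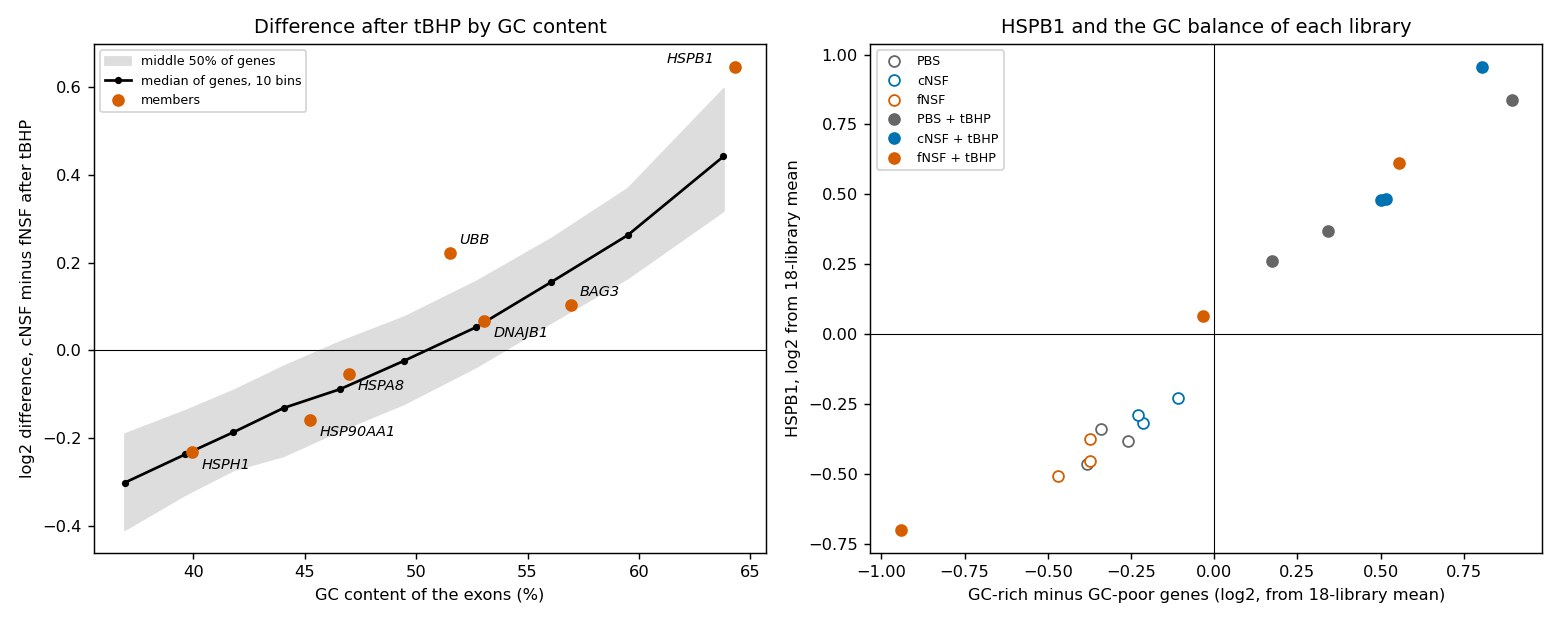
Left, log2 difference of cNSF minus fNSF after tBHP (vertical axis) against exon GC content of each gene's longest transcript (horizontal axis, percent). The line gives medians of 10 bins of tested genes, the shading the middle 50% and the orange points the members. Right, HSPB1 as log2 deviation from its 18-library mean (vertical axis) against the GC balance of each library (log2, horizontal axis); HSPB1 runs from -0.70 to 0.96 and rises with the balance.

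The responses to tBHP were compared directly between pre-incubations through interaction terms. No tested member and no gene passed (0% called in each of the 3 comparisons), and unadjusted p-values under 0.05 numbered 555, 942 and 533 over all genes, 0, 1 and 1 of them members. The response of HSPH1 with fNSF-HA minus that with PBS was 0.22 (95% confidence interval 0.02 to 0.43, limma adjusted p = 0.667), and 0.081 with the trend removed. The response of UBB with cNSF-HA minus that with fNSF-HA was 0.22 (0.02 to 0.42, limma adjusted p = 0.71), and 0.13 with the trend removed. For HSPA8 the intervals were -0.13 to 0.18, -0.11 to 0.20 and -0.17 to 0.14 for cNSF-HA against PBS, fNSF-HA against PBS and cNSF-HA against fNSF-HA. For HSPB1 they were wider, -0.62 to 0.68, -1.10 to 0.20 and -0.17 to 1.13. The spread of the 7 members between replicates was larger with tBHP, where the SD of log2 counts had a median of 0.1 over the groups, than without it, where the median was 0.03.

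For each member the tested gene with the most similar pattern over the 18 libraries, by Pearson r of log2(value + 1), was taken as a description. It was SLC1A5 for BAG3 (r = 0.997), TMEM115 for HSPB1 (0.993), POLE3 for HSPA8 (0.993), TALDO1 for UBB (0.99), TCEAL9 for HSP90AA1 (0.988), SMAD7 for DNAJB1 (0.984), XPOT for HSPH1 (0.979) and C3orf18 for HSPA1A (0.844). These points share the contrast of tBHP and the GC balance of the libraries. Taken as deviations from the group means, r with the same genes was 0.98 for HSPB1, 0.946 for HSPH1 and 0.612 for HSPA1A.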

How the data were processed

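RNA-seq of poly(A) RNA was performed by the authors on 18 libraries of IMR90 cells (TruSeq RNA V2, single-end reads of 100 nt). The submitters' processing notes name Trimmomatic 0.32, STAR 2.5.2b, featureCounts of Subread 1.5.0-p3, DESeq2 and GRCh38.p7, and the annotation release is not given in the sources used here. The deposited values are a signal, gene counts divided by the DESeq2 size factor of each library. The authors' p-values, q-values and ranking score for their own comparisons were in the same deposited table and were not used.

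In each library 100% of values were whole multiples of 1 read (tolerance 0.01), so reads were recovered. The members and lists were chosen with earlier results of these data known. The main test was limma 3.58.1 in R 4.3.3 with a mean-variance trend on log2(value + 1) over all 6 groups, for genes with a mean of at least 10, with Benjamini-Hochberg adjustment and a threshold of 0.05. Differences between responses were interaction terms. edgeR 4.0.16 and DESeq2 1.42.0 on the reads, other pseudocounts (0.1 and 5), filters, scalings, a replicate term, a correction of 5-df spline trends on GC content and length, the compared groups alone and fits without each library were alternatives. The limma step was tested on simulated data. GENCODE 29 gave exons and shared 100-nt windows, and GC content and length from the longest transcript of each gene. GC values were found for 91.6% of tested genes. RefSeq (GRCh38.p14) gave promoters. From each of the 9 related lists, the up to 4 genes with the largest change in PBS cells were named, and for each member the most similar gene. Some genes of these lists are not reported here and were left out of their counts. AL671762.1, AC093484.3, TECR and HSPA7 were added for their position or shared sequence. Depth limits HSPA1A, at 1 to 22 reads a library. Counting limits cover counting error only.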

Additional observations from a re-analysis of the deposited data

How the results depend on the processing

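The counts of members called after tBHP (7, 7 and 6 with PBS, cNSF-HA and fNSF-HA) were 5 to 7, 7 and 6 to 7 over the alternatives, and 6 to 7, 7 and 6 to 7 with 1 library left out. HSPH1 with PBS lost its call without the filter (0.17, adjusted p = 0.118), under quantile normalization (0.12, adjusted p = 0.152) and in edgeR without a filter, a test added after the data were seen (0.16, adjusted p = 0.183). HSP90AA1 with PBS lost it under quantile normalization (0.19, adjusted p = 0.0765) and DNAJB1 with fNSF-HA in edgeR without a filter (0.21, adjusted p = 0.1). HSPB1 with fNSF-HA passed in edgeR (0.60, adjusted p = 0.0383), DESeq2 (0.54, adjusted p = 0.0361) and edgeR without a filter (0.53). Between pre-incubations, where 0 members were called, the count was 2 for cNSF-HA against fNSF-HA without tBHP in a fit of the compared groups alone. After tBHP it was 1 for fNSF-HA against PBS with DESeq2 and 2 with edgeR without a filter, 2 for cNSF-HA against fNSF-HA with either, and 0 to 3 in both comparisons with 1 library left out. The cause was not tested. In the other comparisons between pre-incubations and in the interactions no member was called under any alternative.

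Single members were followed in the responses to tBHP, in the comparisons after tBHP and, for those given with their values, in cNSF-HA against fNSF-HA without tBHP and in the interactions. Of these 728 values under the alternatives that kept every library, 687 stayed on the same side, 15 gained and 5 lost a call, and 21 changed sign, none of them called. HSP90AA1 for cNSF-HA against PBS after tBHP was -0.012 under quantile normalization. BAG3 in that comparison, at -0.0013, was 0.0083 under TMM scaling, 0.014 under quantile normalization, 0.0039 in edgeR and 0.00028 in edgeR without a filter. With the GC and length trend removed, with or without a replicate term, BAG3 was 0.044 for fNSF-HA against PBS and -0.11 for cNSF-HA against fNSF-HA, where HSPH1 was 0.0046 and DNAJB1 -0.033. With 1 library left out, values for cNSF-HA against PBS after tBHP crossed 0 for HSPA8 (-0.0056 to 0.049), HSP90AA1 (-0.080 to 0.094), DNAJB1 (-0.048 to 0.0022), HSPB1 (-0.0085 to 0.32) and BAG3 (-0.046 to 0.067). In the interactions, HSPB1 for cNSF-HA against PBS was -0.0069 under quantile normalization, -0.058 with the trend removed and -0.13 to 0.21 with 1 library left out. HSPA8 was -0.00073 with the trend removed for fNSF-HA against PBS, and for cNSF-HA against fNSF-HA it was 0.0013 with the trend removed, 0.0080 under quantile normalization and -0.050 to 0.011 with 1 library left out.

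The labels do not say whether samples with the same replicate number share a culture. In none of the 9 comparisons between groups did all 3 pairs of the same number have correlated deviations above 0.1 (-0.12 to 0.33 over the pairs). That cannot show that the samples were unpaired. With a replicate block the count for fNSF-HA against PBS after tBHP was 1 (HSPH1, 0.30, adjusted p = 0.0499), and the other counts of members were as in the fit without it. Summing HSPA1A and HSPA1B gave no value of its own, since HSPA1B had no read and the sum stayed under the minimum mean.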
